A study of Mus musculus with 10 samples.

Results

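The genes described here are those of the actin cytoskeleton. They encode the 2 actins of blood cells, the proteins that bind actin monomers, cap filaments or start branches from them, non-muscle myosin II with tropomyosin, and the proteins that tie filaments to each other and to adhesion sites. Members were chosen by their gene symbols, by families of names such as Arpc, Actr, Capz, Coro, Tmsb, Tpm, Myl and Myh. The rule found 50 members among the 12791 genes of the authors' deposited table, and all 50 carry values in both of its comparisons. Another 24 protein-coding mouse genes of RefSeq have symbols that match the rule, most of them muscle myosins, and Myl9 and Pfn2 are also among these; they were not analysed here.

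Bulk sequencing measured RNA of blood progenitors from the bone marrow of C57BL/6 mice, sorted for c-Kit and against Sca-1 and lineage markers. The labels describe 10 libraries. There are 3 libraries of KDR-positive and 4 of KDR-negative progenitors, both from mice that carried the glioma line GL261 and were taken at week 4, and 3 naive libraries from mice without a tumor. A GFP reporter knocked into the gene of KDR, the VEGF receptor, marked positive cells, of which about 20000 went into each such sample. The sources used here do not say whether naive mice carried the reporter or whether each library stands for its own mouse, so the authors' p-values speak only for these samples.

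The authors' deposited table gives for each gene and each of 2 comparisons the log2 fold change, the mean level in log2 CPM, a scaled count whose exact normalization the sources used here do not give, and p-values before and after adjustment. Values of single libraries are absent from what was analysed, so depth is unknown and values carry no standard deviation. The headers of the table name neither the groups nor the direction. The comparisons are called the first and the second, and the numerator group of each is the one in which positive fold changes mean more RNA. The denominator groups of both comparisons are treated as the same group, so calls of the 2 comparisons are not independent. With both groups weighted equally, and nothing fitted, their derived log2 levels differed by a median of 0.00866, against 0.0703 to 0.548 for the other 3 pairings of a first with a second group. CPM of single groups are derived from the deposited mean and fold change. Kit, which encodes c-Kit of the sort, was at 38.8 CPM in the first numerator group and 58.6 CPM in the denominator group. Ly6a, which encodes Sca-1 and was sorted against, was at 37.2 CPM in the first numerator group and 27.6 CPM in the denominator group, and neither gene passed. Kdr, by which the tumor groups were sorted through its reporter, was at 2.24 CPM in the first numerator group and 0.938 CPM in the denominator group, and at 0.378 CPM in the second numerator group and 0.817 CPM in the denominator group. It passed in neither comparison, with log2 fold changes of 1.26 and -1.11 by the authors' deposited table (adjusted p = 0.617 and 1).

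Actin monomers join into polar filaments that grow at one end and are taken apart at the other. Profilin and thymosin beta hold the pool of monomers, cofilin severs old filaments, capping protein stops growth, and the Arp2/3 complex starts a branch on the side of a filament when WASP or WAVE proteins switch it on. Non-muscle myosin II pulls on filaments that tropomyosin coats, and alpha-actinin, filamin, talin, vinculin and zyxin link them to one another and to integrins. Blood cells use this machinery to crawl, to engulf particles and, in megakaryocytes, to shed platelets, which are rich in actin and thymosin beta.

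Several actin genes are known targets of serum response factor (SRF), which binds a motif called the CArG box, and 4 of the 46 members with a promoter window in RefSeq hold one (8.70%). Each window runs from 250 bases before to 50 bases after the start of the gene, the motif reads the same on both strands, and 143 of the 8967 genes of the deposited table with a window (1.59%) hold it. A match is only a string of letters, and Actb, Actr3b, Arpc5l and Coro1b had no window. The 4 windows that hold the box are shown because the fold changes of their genes, given after them, range from among the largest of the members to one that did not pass, with the gene strand read 5′ to 3′ in RefSeq's GRCm38.p6 and the CArG box in capitals.
Actg1, chr11:120348446-120348745, minus strand: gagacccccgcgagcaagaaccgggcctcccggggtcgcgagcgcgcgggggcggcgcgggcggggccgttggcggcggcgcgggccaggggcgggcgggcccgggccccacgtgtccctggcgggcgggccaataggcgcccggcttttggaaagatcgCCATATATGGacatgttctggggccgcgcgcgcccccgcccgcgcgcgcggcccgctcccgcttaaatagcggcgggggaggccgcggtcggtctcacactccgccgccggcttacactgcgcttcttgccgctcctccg
Myl6, chr10:128492960-128493259, minus strand: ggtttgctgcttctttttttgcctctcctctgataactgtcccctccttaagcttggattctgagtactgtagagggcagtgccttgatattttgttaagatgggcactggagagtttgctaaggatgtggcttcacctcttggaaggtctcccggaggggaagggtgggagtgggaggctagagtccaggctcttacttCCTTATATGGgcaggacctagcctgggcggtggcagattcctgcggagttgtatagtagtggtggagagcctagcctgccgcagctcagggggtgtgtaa
Arpc4, chr6:113377863-113378162, plus strand: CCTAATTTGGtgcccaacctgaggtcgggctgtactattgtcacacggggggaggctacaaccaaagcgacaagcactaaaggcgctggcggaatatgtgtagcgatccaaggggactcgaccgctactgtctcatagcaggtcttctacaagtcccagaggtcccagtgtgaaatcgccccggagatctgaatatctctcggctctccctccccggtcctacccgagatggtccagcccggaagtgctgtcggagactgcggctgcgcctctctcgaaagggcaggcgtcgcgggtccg
Vcl, chr14:20929148-20929447, plus strand: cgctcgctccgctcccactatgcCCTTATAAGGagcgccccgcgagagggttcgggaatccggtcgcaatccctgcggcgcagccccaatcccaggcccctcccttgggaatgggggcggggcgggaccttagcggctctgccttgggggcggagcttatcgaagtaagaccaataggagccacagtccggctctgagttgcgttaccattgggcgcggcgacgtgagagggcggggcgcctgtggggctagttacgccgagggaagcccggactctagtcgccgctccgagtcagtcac
The box begins 90 bases before the start in Actg1, 50 in Myl6, 250 in Arpc4 and 227 in Vcl. In the first comparison of the authors' deposited table Actg1 stood at a log2 fold change of 2.51 and Myl6 at 2.76, while Arpc4 stood at 1.32 and Vcl at 0.53, the last not past the threshold. The genes of SRF and its co-activators, Srf at 0.19, Mkl1 at -0.48 and Mkl2 at -1.05, did not pass in the authors' deposited table either (adjusted p = 0.788, 0.366 and 0.538).

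In the first comparison 29 of the 50 members were higher in the numerator group at an adjusted p under 0.05 and 2 were lower, while 19 did not pass. Among all tested genes 18.8% were called higher and 3.49% lower, 22.3% in all. The median log2 fold change was 1.0 over the members and -0.13 over all genes, and members ran between -2.71 for Myl10 and 3.44 for Tmsb4x. These directions hold on the deposited scale. The derived CPM sum to 2127125 in the first numerator group and 756537 in the denominator group, and setting these totals equal lowers every log2 fold change by 1.49. At equal totals 19 of the 29 called members stayed above 0 and 10 fell below it, with 10.9% of all genes called and above 0, and the median over the members was -0.50. The 10 were Zyx, Actr2, Arpc4, Coro1a, Tln1, Tpm4, Capza2, Tpm1, Wdr1 and Actn4. A quantity that does not depend on this scaling is the share of summed CPM, which for the 50 members was 1.53% in the first numerator group and 0.944% in the denominator group. Of the members' 32633 CPM in the numerator group, Actg1 held 8064 and Myl6 6118. By role the share was lower in the numerator group for capping genes (0.0526% against 0.0545%), coronins (0.0274% against 0.0443%) and cross-linking and adhesion genes (0.0317% against 0.0406%). It was higher for actins, monomer binding and turnover, branching, and myosin II with tropomyosin. In bulk samples, fewer cells of a type and less RNA per cell cannot be told apart.

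**Figure D1:**
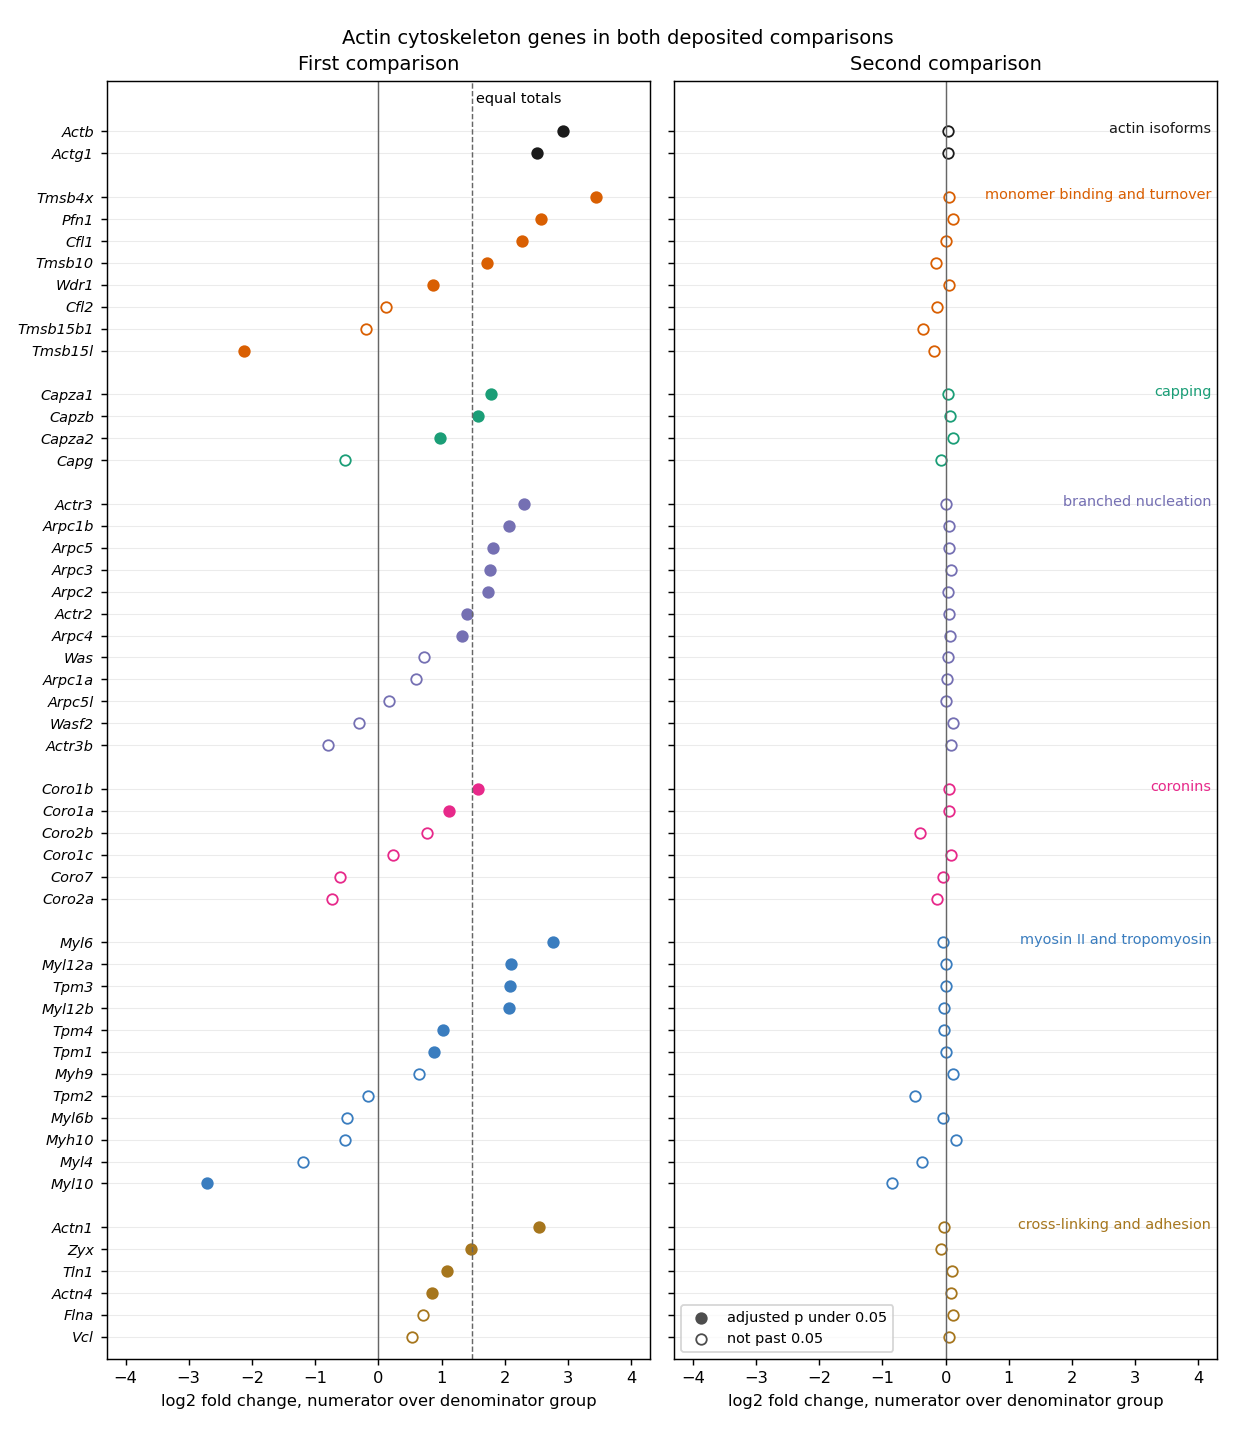
Log2 fold change of each of the 50 actin cytoskeleton genes (rows, grouped by role) in the first (left) and second (right) comparison of the authors' deposited table; filled points have an adjusted p under 0.05, and the dashed line at 1.49 marks where a fold change falls to 0 at equal totals. In the first comparison 29 members are higher and 2 lower, with 10 of the 29 left of the dashed line, and in the second none passes and 45 of 50 lie within 0.2 of 0.

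Both actin genes of non-muscle cells were higher. Actb, which encodes beta-actin, was at 2639 CPM in the first numerator group and 348 CPM in the denominator group. Its log2 fold change in the authors' deposited table was 2.92 (adjusted p = 9.9e-22). Actg1, which encodes gamma-actin, was at 8064 CPM in the numerator group and 1411 CPM in the denominator group, which the authors' deposited table gives as a log2 fold change of 2.51 (adjusted p = 5.6e-18). Both stayed above 0 at equal totals, Actb at 1.43 and Actg1 at 1.02. Per kilobase of transcript Actg1 was the more abundant in the denominator group, at 723 CPM per kilobase against 181 for Actb, while the fold change of Actb was 1.33 times that of Actg1. Actin genes have many processed copies, and the sources used here do not say how reads that match several copies were counted.

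Among the genes of monomer binding and turnover 5 of 8 were higher and 1 was lower. Tmsb4x, which encodes thymosin beta 4, the main store of actin monomers in platelets and leukocytes, had the largest fold change of all 50 members. It was at 1408 CPM in the first numerator group and 129 CPM in the denominator group, which the authors' deposited table gives as a log2 fold change of 3.44 (adjusted p = 1.9e-20). Pfn1, the profilin of blood cells, had a log2 fold change of 2.57 by the authors' deposited table, with 696 CPM in the numerator group and 117 CPM in the denominator group. Cfl1, the main cofilin of non-muscle cells, was at 2913 CPM in the numerator group and 600 CPM in the denominator group, and stood at 2.28 in the authors' deposited table. These 3 genes rose by more than the shift between totals. Tmsb10, a close relative of Tmsb4x, stood at 1.72 and Wdr1, which helps cofilin to take filaments apart, at 0.86 (adjusted p = 0.0151) in the authors' deposited table, and Wdr1 falls to -0.63 at equal totals.

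The lower member of this role was Tmsb15l, at 2.46 CPM in the first numerator group and 10.7 CPM in the denominator group, which the authors' deposited table gives as a log2 fold change of -2.12 (adjusted p = 0.0346). Its RefSeq gene overlaps that of Tmsb15b1, which stood at -0.20 by the authors' deposited table (adjusted p = 0.931). The sources used here do not say how reads were split between these thymosin beta 15 genes, so the value of either is uncertain. Cfl2, the cofilin of muscle, stood at 0.12 by the authors' deposited table (adjusted p = 1).

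Capping genes were higher for 3 of 4 members. Capza1, an alpha subunit of capping protein, was at 663 CPM in the first numerator group and 191 CPM in the denominator group, which the authors' deposited table gives as a log2 fold change of 1.79 (adjusted p = 1.6e-08). Capzb, the beta subunit, stood at 1.57, and Capza2, the other alpha subunit, at 0.97 by the authors' deposited table (adjusted p = 4.9e-07 and 0.00613), with Capza2 at -0.52 at equal totals. Capg, the gelsolin-related capping protein known from macrophages, did not follow them. It was at 38.3 CPM in the numerator group and 55.1 CPM in the denominator group, and its log2 fold change, -0.52 by the authors' deposited table, did not pass (adjusted p = 0.206).

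The Arp2/3 complex, whose 10 measured genes include alternative forms of single subunits, had 7 genes higher and none lower. Actr3, which encodes Arp3, was at 973 CPM in the first numerator group and 197 CPM in the denominator group, which the authors' deposited table gives as a log2 fold change of 2.31 (adjusted p = 1.1e-13). Arpc1b, the form of the p41 subunit prevalent in blood cells, stood at 2.06, with 796 CPM in the numerator group and 191 CPM in the denominator group, by the authors' deposited table (adjusted p = 7.8e-12). Arpc5, Arpc3 and Arpc2 stood at 1.82, 1.76 and 1.74 by the authors' deposited table, and Actr2, which encodes Arp2, and Arpc4 stood at 1.41 and 1.32. At equal totals these 2 genes lie at -0.09 and -0.17, and the other 5 stay above 0. Of the 3 genes of the complex that did not pass, Arpc1a stood at 0.59 (adjusted p = 0.161), Arpc5l at 0.17 (0.771) and Actr3b at -0.79 (1) in the authors' deposited table, the last at 1.12 CPM in the denominator group. The 2 members that switch the complex on did not pass. Was, which encodes WASP of blood cells, was at 95.1 CPM in the numerator group and 57.8 CPM in the denominator group, which the authors' deposited table gives as a log2 fold change of 0.72 (adjusted p = 0.0732). Wasf2, a WAVE protein, stood at -0.30 by the authors' deposited table (adjusted p = 0.560).

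Coronins, which act with Arp2/3 and cofilin when branches are taken down, were higher for 2 of 6 members. Coro1b was at 227 CPM in the first numerator group and 76.0 CPM in the denominator group, which the authors' deposited table gives as a log2 fold change of 1.58 (adjusted p = 2.1e-06). Coro1a, the coronin of leukocytes, was at 232 CPM in the numerator group and 107 CPM in the denominator group and stood at 1.12 (adjusted p = 6.0e-04) in the authors' deposited table, or at -0.37 at equal totals. Coro2a at -0.74 (adjusted p = 0.0660) and Coro7 at -0.61 (0.0994) lay below 0 in the authors' deposited table without passing. Coro1c at 0.24 and Coro2b at 0.77 did not pass by the authors' deposited table (adjusted p = 0.628 and 0.904).

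Genes of myosin II and tropomyosin were mixed, with 6 of 12 higher and 1 lower. The light chains Myl6, Myl12a and Myl12b of non-muscle myosin II were higher, while its heavy chains did not pass. The difference between light and heavy chains was not tested. Myl6, the essential light chain of non-muscle and smooth muscle myosin, was at 6118 CPM in the first numerator group and 900 CPM in the denominator group, which the authors' deposited table gives as a log2 fold change of 2.76 (adjusted p = 6.1e-20). The regulatory light chains Myl12a and Myl12b stood at 2.10 and 2.07 by the authors' deposited table, and since these are close copies of each other the split between them is uncertain. Myh9, the heavy chain of myosin IIA and the main one of platelets and leukocytes, was at 104 CPM in the numerator group and 66.2 CPM in the denominator group, which the authors' deposited table gives as a log2 fold change of 0.65 (adjusted p = 0.102). Myh10, the heavy chain of myosin IIB, stood at -0.52 by the authors' deposited table (adjusted p = 0.539). Among tropomyosins Tpm3 stood at 2.08, Tpm4, a form of platelets, at 1.02 and Tpm1 at 0.88 by the authors' deposited table (adjusted p = 9.7e-13, 0.00729 and 0.00805), and Tpm4 and Tpm1 fall to -0.47 and -0.62 at equal totals. Tpm2 at -0.16, Myl6b at -0.50 and Myl4 at -1.19, genes known mainly from muscle or, for Myl4, the atrium and the embryo, did not pass by the authors' deposited table (adjusted p = 1, 0.630 and 0.293).

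Myl10 was the myosin gene that was lower. This light chain is named PLRLC in RefSeq's synonyms and is known in the mouse from precursor lymphocytes. It was at 8.47 CPM in the first numerator group and 55.6 CPM in the denominator group, which the authors' deposited table gives as a log2 fold change of -2.71 (adjusted p = 4.8e-12). Markers of B cells and their precursors lay on the same side, with 9 of 11 lower and none higher and a median log2 fold change of -2.83. Of all genes 3.49% were called lower, and the marker list was chosen with earlier results of these data known. The summed level of these markers was 200 CPM in the first numerator group and 515 CPM in the denominator group, and no marker of the list was at 0. In the authors' deposited table Dntt stood at -2.92 and Igll1 at -2.75 (adjusted p = 1.1e-13 and 3.5e-11). The part of these cells in the value of Myl10 was not tested.

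Cross-linking and adhesion genes were higher for 4 of 6 members, and none was lower. Actn1, an alpha-actinin with a known role in human platelet formation, was at 92.3 CPM in the first numerator group and 15.8 CPM in the denominator group, which the authors' deposited table gives as a log2 fold change of 2.54 (adjusted p = 1.5e-11). Zyx, which encodes zyxin of adhesion sites, stood at 1.46 and Tln1, which encodes the talin that activates platelet and leukocyte integrins, at 1.09 by the authors' deposited table (adjusted p = 9.7e-06 and 0.00112). Actn4, the other alpha-actinin of non-muscle cells, stood at 0.85 by the authors' deposited table (adjusted p = 0.0171). At equal totals only Actn1 of these 4 genes stays above 0, at 1.05, with Zyx at -0.04, Tln1 at -0.40 and Actn4 at -0.64. Flna, which encodes filamin A, was at 106 CPM in the numerator group and 65.4 CPM in the denominator group, and with Vcl, which encodes vinculin, did not pass, at 0.70 and 0.53 by the authors' deposited table (adjusted p = 0.0747 and 0.201).

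Members with a higher level had larger fold changes in the first comparison, and from 4 to 9 log2 CPM so did genes in general. Across the 50 members Spearman's rank correlation between the log2 fold change and the derived log2 CPM in the denominator group was 0.81, against 0.34 across 12790 genes of all levels and 0.52 across the 9459 genes over 3 log2 CPM; genes share libraries and are not independent, and both measures come from the same values. Below 4 log2 CPM the median of all genes did not climb with level, and stood at -0.19 at -1 to 0 log2 CPM and -0.54 at 3 to 4. It was -0.36 at 4 to 5 log2 CPM, 0.11 at 5 to 6, 1.01 at 6 to 7, 1.86 at 7 to 8 and 2.04 at 8 to 9. Above that it climbed no further, at 1.93 at 9 to 10 log2 CPM and 1.95 at 10 to 11. In the denominator group 39 members had a level above 5 log2 CPM. Read against the median of all genes in the same 1-unit bin of level, 34 of 50 members lay above it, 22 were in the upper 25% of their bin and 8 in the lower 25%, and the median of the members was 0.30 above the bin. The median climbs steeply from 5 to 8 log2 CPM, so there this distance also depends on where in its bin a gene lies.

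By this measure some members with large fold changes lay near the median of their level and others far from it. Actn1 lay 3.09 log2 units above its bin, at percentile 97.7 of 1945 genes, the largest such excess among the members. Tmsb4x lay 1.58 above its bin (percentile 99.7 of 176 genes), Pfn1 1.56 (99.0 of 1008) and Zyx 1.35 (95.1 of 2959). The actins stayed above their bins too, Actb by 0.89 and Actg1 by 0.57, as did Myl6 by 0.84. By contrast Tpm3 and Myl12b, with log2 fold changes of 2.08 and 2.07 in the authors' deposited table, lay 0.05 and 0.03 above theirs, and Capza1, Tmsb10, Actn4, Wdr1 and Capza2, though called higher, lay below by 0.04 to 0.32. In the denominator group Wdr1, Actn4 and Capza2, at 6.09, 6.12 and 6.23 log2 CPM, lay low in the bin from 6 to 7. A gene low in this bin is set against genes of mostly higher level, so the signs of these genes are uncertain. Myl10 lay furthest below, at -2.82 (percentile 0.591 of 2959), followed by Tmsb15l at -1.58, Coro2a at -0.84, Coro7 at -0.72, Myl4 at -0.64 and Capg at -0.63.

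**Figure D2:**
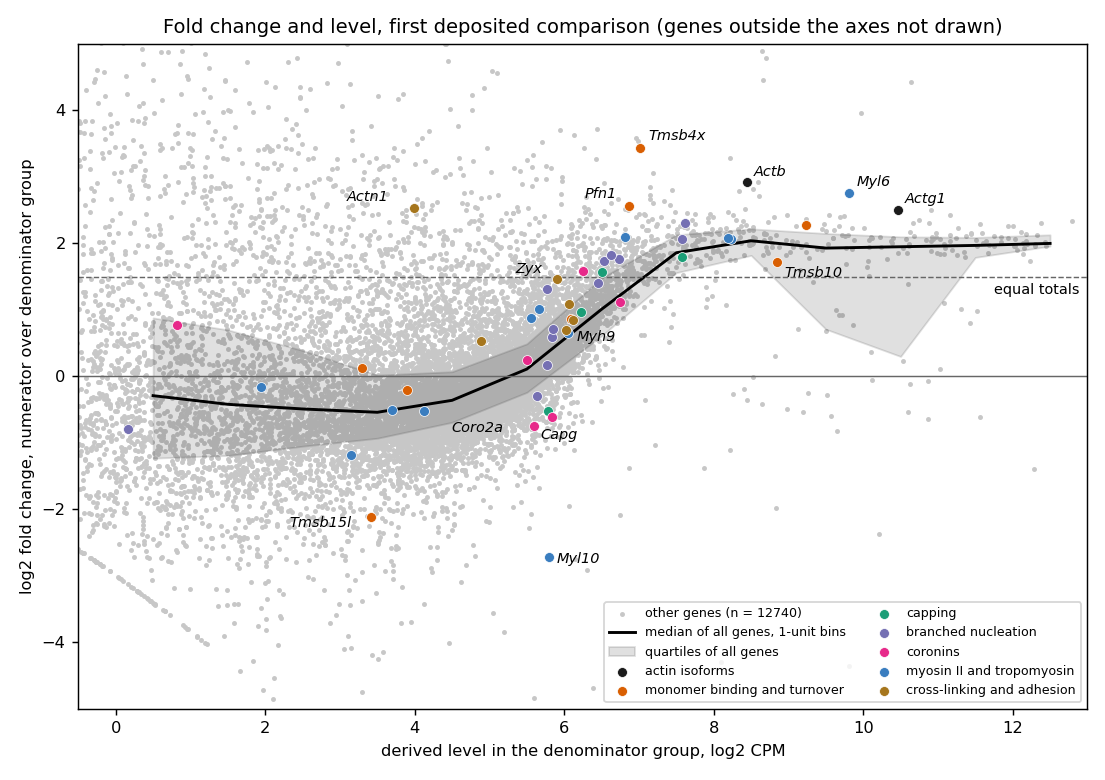
Log2 fold change in the first comparison (vertical axis) against the derived level in the denominator group in log2 CPM (horizontal axis), with the 50 actin genes coloured by role, other genes in light grey, and the median and quartiles of all genes per 1-unit bin as a black line and a grey band. The line climbs between 5 and 8 log2 CPM to about 2, and Actn1, Tmsb4x, Pfn1 and Actb lie above it while Myl10 lies far below; the dashed line at 1.49 marks equal totals, above which all 4 of those higher genes stay.

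Transcript length, a property that differs widely among these genes, moved with the fold change among the members of higher level, but hardly over all 50. Among members over 5 log2 CPM in the denominator group the median log2 fold change was 1.74 for the 17 with a longest coding transcript of up to 2000 bases, 1.36 for the 16 of over 2000 and up to 4000 bases, and 0.18 for the 6 longer ones, among them Flna, Tln1 and Myh9. The medians of all genes over 5 log2 CPM in the same length classes were 0.70, 0.28 and -0.03. Over all 50 members the rank correlation with length was -0.10. Level was not matched between the length classes. The part of length in these values was not tested.

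Pairs of related genes that fill the same role often differed. In 8 of 11 pairs the log2 fold changes in the first comparison lay more than 1 apart, and the differences themselves were not tested. The widest were Myl6 at 2.76 against Myl6b at -0.50 and Actr3 at 2.31 against Actr3b at -0.79 in the authors' deposited table. Arpc1b at 2.06 and Arpc1a at 0.59, and Arpc5 at 1.82 and Arpc5l at 0.17 in the authors' deposited table, are alternative subunits of the same complex. Relative to genes of like level Arpc1b lay at 0.19 and Arpc1a at 0.48, the reverse order, while Arpc5 lay at 0.81 and Arpc5l at 0.06. By that measure Cfl1 with Cfl2, Capza1 with Capza2 and Myh9 with Myh10 turn as well, and the remaining pairs keep their order. In the denominator group Arpc1a, at 5.84 log2 CPM, lay near the top of its bin and Myh9, at 6.05, near the bottom of its own. The turns of the pairs that hold Arpc1a and Myh9 are therefore uncertain. In 7 of the 11 pairs the gene with the higher fold change was also the more abundant per kilobase in the denominator group, which is the direction of the trend over level. The 4 pairs with the other order were Actb with Actg1, Myl12a with Myl12b, Tmsb4x with Tmsb10 and Actn1 with Actn4. In the last pair Actn1 was at 4.24 CPM per kilobase in the denominator group and Actn4 at 17.9, yet their log2 fold changes were 2.54 and 0.85 in the authors' deposited table.

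**Figure D3:**
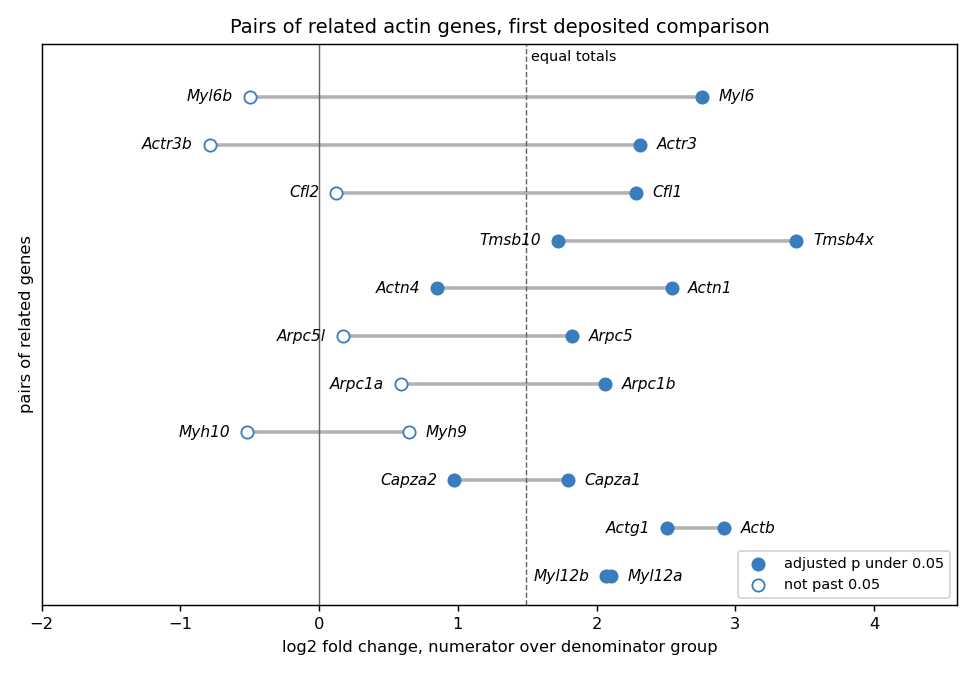
Log2 fold change in the first comparison for 11 pairs of related genes (rows, ordered by the difference within the pair); filled points have an adjusted p under 0.05 and the dashed line at 1.49 marks equal totals. In 8 pairs the points lie more than 1 apart, widest for Myl6 and Myl6b, and Myl12a and Myl12b coincide at about 2.1.

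Genes known from platelets and from myeloid cells were found among the members called higher and among those that did not pass. Of those known from platelets Tmsb4x, Actn1, Zyx, Tln1, Tpm4 and Tpm1 were higher on the deposited scale, the last 4 only there, while Myh9, Flna and Vcl did not pass. Of those known from myeloid cells Arpc1b and Coro1a were higher, Coro1a only on the deposited scale, while Was and Capg did not pass. Markers of both kinds of cell, and of others, moved in the same comparison, in which 18.8% of all genes were called higher and 3.49% lower. The marker lists were chosen with earlier results of these data known. All 20 measured megakaryocyte and platelet markers were higher in the first numerator group, with a median log2 fold change of 2.88 and a summed level of 2706 CPM in the numerator group and 431 CPM in the denominator group. All 18 macrophage markers were higher, with a median of 5.0 and sums of 5544 CPM in the numerator group and 289 CPM in the denominator group. At equal totals 17 of the 20 and all 18 stay above 0, against 10.9% of all genes called and above 0. The list of late neutrophil granule markers, which also holds Lyz2, S100a8 and S100a9, was higher for 8 of 11. Its sums were 3365 CPM in the numerator group and 483 CPM in the denominator group. Most of the numerator sum came from Lyz2, S100a8 and S100a9, at 1479, 740 and 643 CPM, and Ltf, Mmp8 and Cd177 did not pass. Of 11 erythroid markers 5 were higher and 3 lower, with sums of 29323 CPM in the numerator group and 1744 CPM in the denominator group, and Hbb-b2 stood at 4.89 and Hba-a1 at 3.97 by the authors' deposited table. None of these markers was at 0, and Pf4 at 3.43, Treml1 at 3.16, C1qa at 5.0 and Lyz2 at 3.54 in the authors' deposited table stood among the smallest p of their lists. The part of these cells in the fold changes of the actin genes was not tested.

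Further actin regulators, which the rule does not cover, were higher for 17 of the 66 genes counted and lower for 1, with a median log2 fold change of 0.27, and 7 of the 17 fall below 0 at equal totals. Among all tested genes 18.8% were called higher and 3.49% lower, the background for each list that follows as well. Among 12 genes of formins, which build unbranched filaments, and of Ena/VASP proteins 5 were higher, Vasp at 1.54, Fhod1 at 1.34 and Inf2 at 1.09 in the authors' deposited table, of which Fhod1 and Inf2 lie below 0 at equal totals. Of 12 partners of WASP and WAVE 3 were higher, Cttn, which encodes cortactin, at 2.19, Abi3 at 2.14 and Hcls1 at 1.19 in the authors' deposited table, with Hcls1 at -0.30 at equal totals. Among 24 genes of filament binding and turnover 5 were higher, led by Tagln2 at 1.74, Dstn at 1.66 and Cap1 at 1.52 in the authors' deposited table. The lower gene of that list, named after its value was seen, was Scin, which severs filaments, at -3.38 by the authors' deposited table (adjusted p = 0.00190). Focal adhesion genes were higher for 4 of 7, with Fermt3, the kindlin of blood cells, at 1.67, Ilk at 1.57 and Lims1 at 1.05 in the authors' deposited table, Lims1 at -0.44 at equal totals. None of 11 kinases and phosphatases of myosin and cofilin passed, and Mylk, Limk2 and Ssh3 had adjusted p-values of 0.391, 0.340 and 0.399 in the authors' deposited table.

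**Figure D4:**
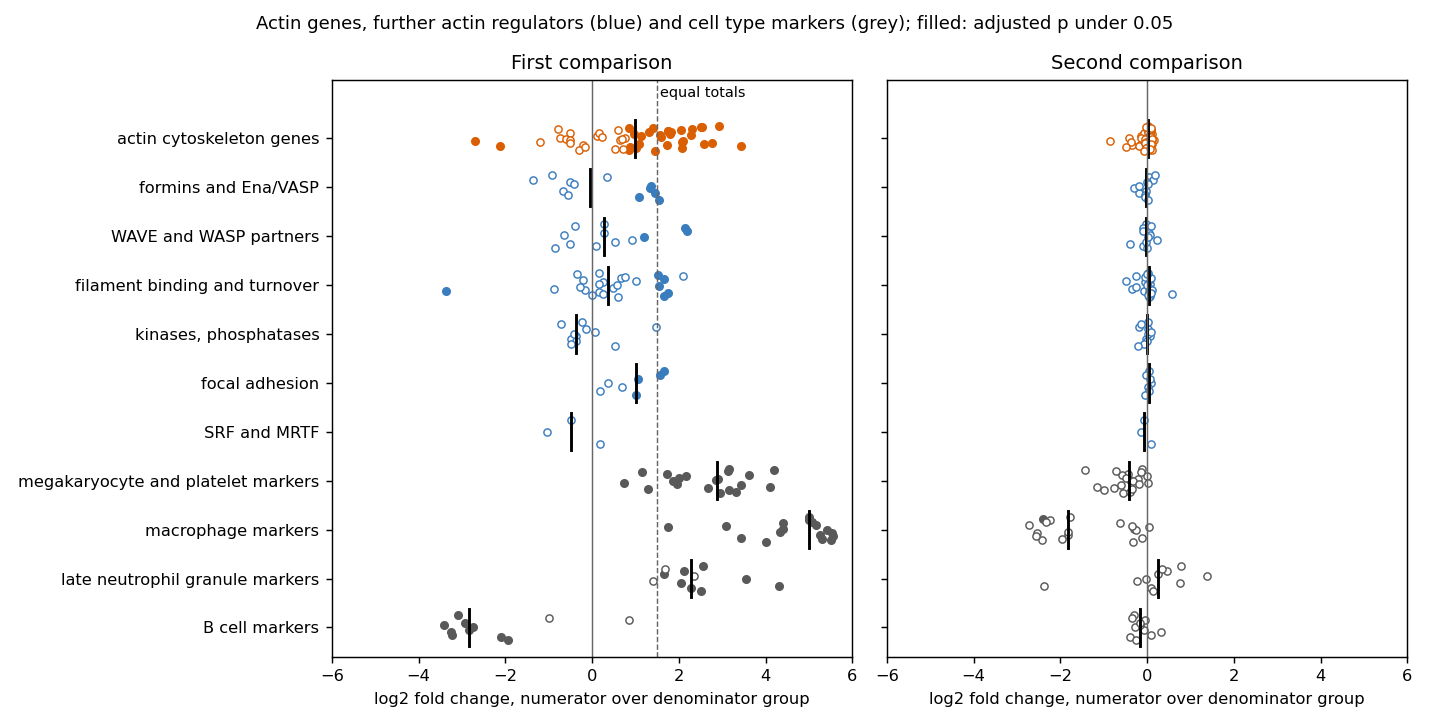
Log2 fold changes in the first (left) and second (right) comparison for the 50 actin genes (orange), further actin regulators and SRF with its co-activators (blue) and marker lists (grey); black bars are medians, filled points have an adjusted p under 0.05, and the dashed line at 1.49 marks equal totals. In the first comparison focal adhesion genes have a median of 1.02 and kinases and phosphatases one of -0.37. Relative to genes of like level, which are not drawn, these medians are 0.56 and -0.01. In the second comparison all actin lists centre on 0 and macrophage markers have a median of -1.82.

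The second comparison gave no call among the 50 members (0 of 50), against 14 of 12791 genes (0.109%) in all, 0.0704% higher and 0.0391% lower. At an unadjusted p under 0.05 1 member passed, against 43 genes (0.336%). The adjusted p in the authors' deposited table was 1 for the other 49 members, and 45 of the 50 had a log2 fold change within 0.2 of 0. The median log2 fold change was 0.03 over the members, with 31 above and 19 below 0. Actb was at 347 CPM in the second numerator group and 339 CPM in the denominator group, Tmsb4x at 127 and 123 CPM, Myl6 at 834 and 866 CPM, and Actn1 at 15.4 and 15.7 CPM, in the same order of groups. The 50 members summed to 6968 CPM in the second numerator group and 6962 CPM in the denominator group. The table gives no standard error, so how large a difference could have gone undetected cannot be stated.

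Myl10 was the member that passed the unadjusted threshold in the second comparison. It was at 31.0 CPM in the second numerator group and 55.8 CPM in the denominator group, which the authors' deposited table gives as a log2 fold change of -0.85 (p = 4.7e-04, adjusted p = 0.301). It lay at percentile 0.151 of the fold changes of genes at its level. B cell markers had a median log2 fold change of -0.17 in this comparison and none passed, with a summed level of 444 CPM in the second numerator group and 524 CPM in the denominator group. The other 4 members beyond 0.2, Tpm2 at -0.48, Coro2b at -0.41, Myl4 at -0.37 and Tmsb15b1 at -0.36 in the authors' deposited table, were all under 15 CPM in both groups. Megakaryocyte and platelet markers had a median of -0.42 in the second comparison with none past the threshold, and of the 18 macrophage markers 1, C1qa at -2.41 in the authors' deposited table, was lower (adjusted p = 0.0195).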

How the data were processed

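Total RNA of sorted cells was made into libraries (Illumina TruSeq), per the labels' protocols. Bowtie 0.12.2 and the build mm8 are named in the submitters' processing notes, without roles; the sources used here do not give the counting program, the annotation or the test. Per the file headers, the authors deposited log2 fold changes and mean log2 CPM values with p-values and adjusted p-values for 12791 genes in 2 comparisons. The deposited adjusted p-values equal the Benjamini-Hochberg adjustment of the deposited p-values within 1e-06. The tests planned for values per library could not be run, since the table holds none.

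Levels of single groups were derived from the deposited mean and fold change (Python 3.11.15, numpy 2.4.6, pandas 2.3.3, scipy 1.17.1). The weights of the numerator groups, 0.48 and 0.59, made the denominator levels of both comparisons closest over 9044 genes above 3 log2 CPM, and the fit was tested on simulated data. Genes were called at an adjusted p under 0.05. Equal totals means that the derived CPM of the groups compared sum alike. Each gene was also set against the median of all genes in its 1-unit bin of log2 level in the denominator group. Lengths are those of the longest coding transcript in GENCODE M21; promoters and synonyms come from RefSeq (GRCm38.p6), in which all 50 member symbols were found. The CArG box was searched as a string.

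Every member may be named. Values are given for up to 5 members with the smallest p in each role, for those lower in the first comparison, for those past the threshold in the second and for the best known; further lists give their 3, and marker lists their 2, smallest p. Members, roles and lists were chosen with earlier results of these data known. The names Arpc1a, Arpc5l, Actr3b and others that did not pass are given to account for the members. The marker lists of T and NK cells, erythroid cells, smooth and skeletal muscle and endothelium were also counted, and some further regulators are not reported here. In the first comparison these marker lists were higher for 1 of 6, 5 of 11, 1 of 3, 1 of 4 and 2 of 5 measured genes, and lower for 3 T and NK and 3 erythroid genes. The shares over all genes were 18.8% higher and 3.49% lower. Alternatives were other thresholds and adjustments, a filter on low levels, 2 scalings, the comparison by level and equal weights of the groups.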

Additional observations from a re-analysis of the deposited data

How the results depend on the processing

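Of the 50 members, 31 were called in the first comparison, and between 21 and 37 under the 8 alternatives. The lowest number, 19 higher and 2 lower, came from the shift to equal totals, and the highest, 33 higher and 4 lower, from an unadjusted p. For the 2 scalings no p-value could be recomputed, so deposited calls were kept where their sign held. Those counts could only fall, and members not called on the deposited scale were not counted as lower at equal totals. In the second comparison the count of 0 became 1 at an unadjusted p under 0.05 and stayed 0 under the other 7 alternatives. Of these the 2 scalings could add no call. The median log2 fold change of the members in the first comparison, 1.0, became 1.13 when centred on the median of all genes, 0.30 relative to genes of like level and -0.50 at equal totals, where it turned negative because the shift of 1.49 exceeds it. At equal totals 10 called members turned negative, namely Zyx (-0.04), Actr2 (-0.09), Arpc4 (-0.17), Coro1a (-0.37), Tln1 (-0.40), Tpm4 (-0.47), Capza2 (-0.52), Tpm1 (-0.62), Wdr1 (-0.63) and Actn4 (-0.64). Relative to genes of like level 5 did, namely Capza2 (-0.04), Capza1 (-0.07), Wdr1 (-0.15), Actn4 (-0.16) and Tmsb10 (-0.32). That count also depends on the place of each gene in its bin of level. Equal weights changed no derived CPM of a member by more than 5.13%. No paired analysis was possible because the table gives no value per library, and for the same reason no replicate could be left out. Depth is unknown, so precision at low levels cannot be stated.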

Other observations

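Alpha-actin genes, which the rule does not cover, were higher in the first comparison. Acta1, the actin of skeletal muscle, was at 87.1 CPM in the first numerator group and 9.13 CPM in the denominator group, which the authors' deposited table gives as a log2 fold change of 3.25 (adjusted p = 8.8e-23). Acta2, the actin of smooth muscle, was at 10.9 CPM in the numerator group and 2.78 CPM in the denominator group and stood at 1.97 by the authors' deposited table (adjusted p = 0.0346). Both stayed above 0 at equal totals, at 1.76 and 0.48. None of the other muscle markers in the table passed, with Mylpf at -1.43, Ckm at -1.44, Tnni2 at -0.04, Tagln at -1.12 and Smtn at -0.87 by the authors' deposited table (adjusted p = 0.0512, 0.826, 1, 0.875 and 0.186). The actin genes are closely related, and the sources used here do not say how reads that match several of them were counted, so the values of Acta1 and Acta2 are uncertain. In the second comparison Acta1 stood at 0.04 and Acta2 at -0.10 in the authors' deposited table, neither past the threshold.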
